A study of Mus musculus with 6 samples.

Results

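Distal mouse chromosome 4 carries a dense cluster of genes for KRAB zinc finger proteins, and its expression was compared between Asxl1 genotypes in mouse acute myeloid leukemia blasts. The cluster was taken as all genes of the GENCODE M21 annotation (GRCm38) whose start lies on chromosome 4 between 145200000 and 147600000 and that held at least 10 estimated reads in at least 3 of the 6 libraries. Of 86 annotated genes in that window, 42 met this floor, out of 20915 genes of the whole series that met it. The members start over 2.34 Mb. They comprised 16 genes with an array of at least 3 zinc fingers, of which Gm13230, Znf41-ps and Gm13147 are annotated as pseudogenes. Another 2 genes had the conserved letters of a KRAB domain in a reading frame (called KRAB letters here) but no such array. The rest were 3 other protein-coding genes, 11 pseudogenes without such an array and 10 non-coding RNA genes. Of the 44 genes under the floor, 41 were pseudogenes, and the 2 protein-coding ones were Zfp986 and Zfp978. The members were thus chosen by position and by read number. Ranked by the lowest of its 3 best-covered libraries, the members just above the floor were Gm13146, Gm13142 and 1700095A21Rik, with 10.03, 10.9 and 12.5 reads, and the genes just below were Smarca5-ps, Gm13144 and Gm13163, with 6.90, 6.57 and 5.84 reads. Zfp981 and Gm21411 met the floor through the WT libraries alone and therefore had to differ between the genotypes, so counts and medians over the members are descriptions only.

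The libraries came from leukemic blasts of transplanted mice of strain C57/BL6, 3 from each genotype. All 6 were Cebpa-/p30, so that the myeloid transcription factor C/EBPα was present only as its short p30 form. The first group had wild-type Asxl1 (WT) and the second carried the G643W change on both alleles (G643W). Blasts were sorted from bone marrow as CD45.2+, Mac1low, Gr1low cells without Ter119, B220 or CD3, and the labels do not say whether libraries of a genotype came from separate primary leukemias. The p-values here therefore reflect how far these libraries varied, and some of that variation may be technical.

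KRAB zinc finger proteins bind DNA through tandem C2H2 fingers, each of which contacts a few bases, and through their KRAB domain they recruit the scaffold protein Trim28 and the histone methyltransferase Setdb1. They are best known for placing repressive chromatin on endogenous retroviruses and other transposable elements, in particular in embryonic stem cells and the early embryo. The genes lie in tandem arrays that grew by repeated duplication, so that neighbours are often nearly the same in sequence, and the cluster on distal chromosome 4 is one of the large arrays that expanded in the mouse lineage.

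The sequence of 1 finger shows how alike the members are, and it sets the limit on which of them short reads can tell apart. The 84 bases below begin at the first cysteine codon of a finger of Zfp990, the member with the largest difference between the genotypes, and include the linker to the next finger. The other lines are the aligned bases of 6 further members, on the plus strand of GRCm38 chromosome 4, with capitals at each base that differs from Zfp990.
Zfp990: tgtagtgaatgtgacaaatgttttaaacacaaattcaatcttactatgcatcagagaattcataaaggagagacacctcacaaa
Zfp991: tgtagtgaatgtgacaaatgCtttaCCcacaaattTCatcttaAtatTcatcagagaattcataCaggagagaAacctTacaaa
Zfp992: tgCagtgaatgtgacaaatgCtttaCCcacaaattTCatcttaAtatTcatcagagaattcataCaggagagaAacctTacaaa
Znf41-ps: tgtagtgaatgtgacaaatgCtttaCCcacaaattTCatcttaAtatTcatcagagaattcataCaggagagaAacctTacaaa
Zfp981: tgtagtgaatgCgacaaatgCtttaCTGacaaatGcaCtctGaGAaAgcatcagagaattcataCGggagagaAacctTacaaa
Zfp985: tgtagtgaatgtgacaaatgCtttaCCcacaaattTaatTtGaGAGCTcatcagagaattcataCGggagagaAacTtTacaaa
Zfp987: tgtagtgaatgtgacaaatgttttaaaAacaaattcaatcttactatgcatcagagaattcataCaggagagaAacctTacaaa
Zfp990 lies at chr4:145537157-145537240, Zfp991 at chr4:147178891-147178974, Zfp992 at chr4:146466547-146466630, Znf41-ps at chr4:145828253-145828336, Zfp981 at chr4:146537340-146537423, Zfp985 at chr4:147583394-147583477 and Zfp987 at chr4:146124723-146124806. All lie in annotated coding sequence except that of Znf41-ps, which is annotated as a pseudogene. Zfp990 differed from Zfp987 at 4 of the 84 bases, from Zfp991 at 10, from Zfp981 at 15 and from Zfp985 at 16. Zfp991 and Znf41-ps did not differ at any of these bases, and Zfp992 differed from both at 1. Reads that lie wholly inside this stretch hold no base that tells Zfp991 from Znf41-ps, and the deposited values divide such reads by estimate.

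Near-identical copies were counted as other genes with a transcript at least 95% identical over at least 50% of the length of the member's most-read transcript or the reverse. Of the 42 members, 30 had at least 1 such copy and 12 had none. The largest copy group held 16 genes, 13 of them members, and contained Zfp980, Zfp987 to Zfp993, Znf41-ps, Gm13147, Gm13166, Gm13236 and Gm21411 among the members. Within it, the Zfp991 transcript was 99.28% identical to Zfp992 and 99.54% identical to Znf41-ps along the matched part. Ranked by identity times matched length, the best match of the Zfp990 transcript in another gene was Zfp981, at 80.03% identity over 94.1% of its length. Zfp990 has Gm21411 as its only near-identical copy, since 65.2% of the short Gm21411 transcript matched Zfp990 at 97.34%. Smaller groups joined Rex2, Zfp600 and Zfp979, Gm13230 and Platr16, and C230088H06Rik and Gm26573. The 11 members classed as pseudogenes stood apart from these groups, with 3 near-identical to Hmgb2, 3 to Cdv3, 1 each to Smarca5, Rpl28 and Ppp2r5a, and 2 to each other.

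The library totals ranged from 61167075 to 101189225 estimated reads. Asxl1 was at 86.5, 54.5 and 73.8 CPM in the WT libraries against 103, 164 and 147 CPM with G643W, which does not check the label since the transcript remains in the mutant. CPM here are read shares after TMM scaling. Blast and progenitor markers (Kit, Cd34, Ptprc, Mpo, Flt3) summed to 443 to 1750 TPM in WT and 319 to 2304 TPM in G643W. The 9 neutrophil markers summed to 2360 to 75671 TPM in WT and 15848 to 172598 TPM in G643W. Both sums overlapped between the genotypes, and Mpo held most of the blast and progenitor sum in each of the 6 libraries. Within that list, Cd34, a stem and progenitor cell surface marker, was at 64.7, 94.0 and 42.7 TPM in WT against 38.3, 5.82 and 19.9 TPM with G643W (log2 difference -1.89, edgeR adjusted p = 0.477). The receptor gene Flt3 was at 5.78, 3.14 and 2.28 TPM against 0.382, 0.203 and 0.888 TPM (log2 difference -3.04, edgeR adjusted p = 0.298). Neither passed the threshold, but both were lower in all 3 G643W libraries than in any of WT. Kit, Ptprc and Mpo of the same list overlapped between the genotypes. Their log2 differences were 0.34, 0.27 and 0.01 (edgeR adjusted p = 0.886, 0.829 and 0.996), so the list did not move in 1 direction. Summed monocyte and macrophage markers lay at 335 to 563 TPM in WT and lower, at 143 to 321 TPM, in every G643W library. Erythroid markers summed to 0.805 to 7.07 TPM and 11.8 to 33.7 TPM, with every G643W library higher. B cell and T cell markers were at 14.1 to 16.5 and 1.31 to 10.5 TPM in WT and at 8.93 to 16.1 and 2.26 to 12.2 TPM in G643W. The lymphoid lists overlapped between the genotypes. The part of these cell types in the differences below was not tested, and in bulk samples fewer cells of a type and less RNA per cell cannot be told apart.

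Across the cluster, 2 members fell in G643W, the zinc finger gene Zfp990 and the short KRAB gene Gm21411, and no member rose. Of these, Gm21411 met the read floor through WT alone, so its difference was fixed in part by the floor. The calls were 2 of 41 members tested, beside 25 of 20654 genes, or 0.121%, for the whole series in either direction and 14 genes, or 0.0678%, in the lower direction (edgeR's quasi-likelihood test, Benjamini-Hochberg adjusted p under 0.05 over all genes tested). Gm13135 had too few reads to be tested. At an unadjusted p under 0.05 there were 13 members, beside 9.66% of all genes tested, and 11 of them were lower, beside 5.78% of all genes. For 14 members, all 3 WT libraries lay above all 3 G643W libraries, beside 8.89% of all genes tested, and for 1 member, Znf41-ps, all 3 G643W libraries lay above, beside 7.05% of all genes. Of these 14 members, 6 had a WT mean under 1 CPM. The median log2 difference, G643W minus WT, was -0.36 over the 41 members and -0.01 over all genes tested, with 27 members below 0 and 14 above. Among the 16 zinc finger members, 7 lay wholly lower in G643W and 1 wholly higher, with a median of -0.29. Both members with KRAB letters but no finger array, 4 of 10 non-coding RNAs and 1 of the 3 other protein-coding genes lay wholly lower. None of the 10 tested pseudogenes without a finger array lay wholly apart in either direction. DESeq2, a second count test, called 7 members, 6 lower and Zfp987 higher, beside 2.26% of the genes to which it gave an adjusted p.

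**Figure D1:**
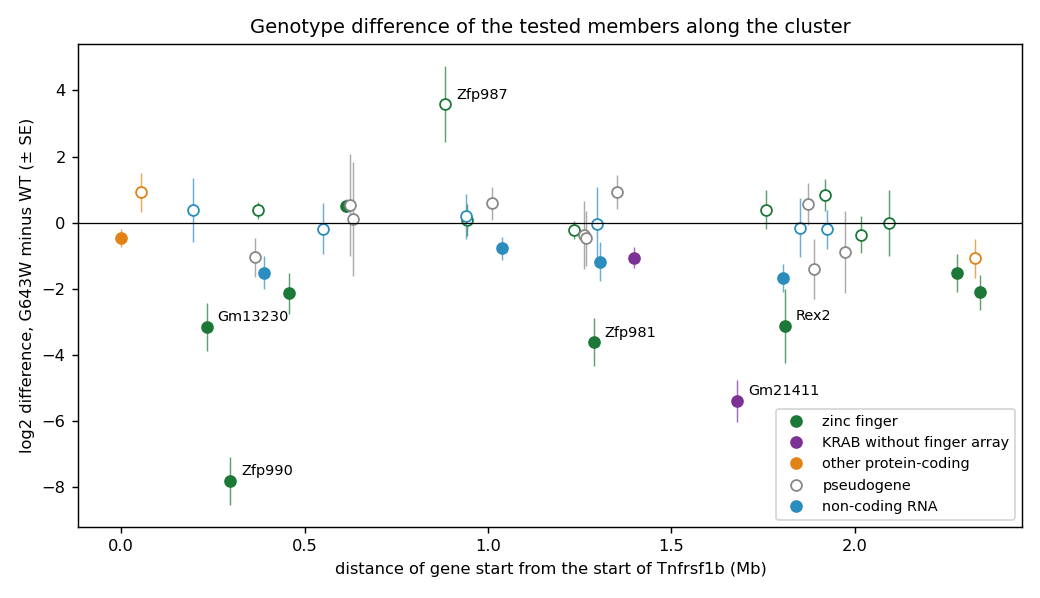
Genotype difference of the 41 tested members along the cluster: the y axis gives the log2 difference, G643W minus WT, with its standard error as a bar, and the x axis the distance in Mb of the gene start from that of Tnfrsf1b. Colours give the class, and filled circles, of any class, mark members whose WT and G643W libraries do not overlap. Zfp990 lies lowest at -7.80 and Zfp987 highest at 3.59, and members near 0 lie between the lower ones along the whole cluster.

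Zfp990 (ENSMUSG00000078503, chr4:145510759-145539188, plus strand) encodes a KRAB zinc finger protein, with 13 fingers in a reading frame. For libraries 1 to 3 of each genotype, in this order here and below, its estimated reads were 6177, 4298 and 2093 in WT against 31.3, 10.2 and 15.2 in G643W, or 81.2, 60.8 and 27.8 CPM against 0.453, 0.112 and 0.202 CPM. The WT libraries differed among themselves, yet the lowest of them was far above the highest G643W library. The means were 56.6 ± 26.95 and 0.256 ± 0.177 CPM (SD, n = 3 each), 221-fold lower in G643W, and the fitted log2 change was -7.80 ± 0.73 (SE, edgeR adjusted p = 0.0257). The call was lost without WT library 1, WT library 2, G643W library 2 or G643W library 3, with edgeR adjusted p of 0.0939, 0.188, 0.0962 and 0.229, while the log2 difference stayed between -8.41 and -7.43 with each library left out in turn.

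Of the 16 zinc finger members' summed CPM, Zfp990 made up 38.5%, 32.4% and 13.5% in the WT libraries and 0.228%, 0.0707% and 0.117% in the G643W libraries. It thus held a large share of the array's reads in WT and a very small one in every G643W library.

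Nearly all WT reads of Zfp990 were placed on its long transcripts. The transcript Zfp990-202, of 2996 bases, held 5897, 4016 and 1872 reads in WT and 16.6, 6.20 and 0 in G643W, and Zfp990-201, of 3044 bases, held 263, 282 and 200 reads in WT and 0, 0 and 8.46 in G643W. Both full-length forms were low in every G643W library. Levels per length give a short transcript more weight. Zfp990-203, of 262 bases, held 8.14, 0 and 0 reads in WT and 10, 4 and 1 in G643W, and these few reads counted as 1.98, 0 and 0 TPM and as 2.93, 0.781 and 0.260 TPM. Over all its transcripts, Zfp990 was at 20.4, 11.8 and 6.35 TPM in WT and at 3.10, 0.794 and 0.413 TPM in G643W, so the groups stayed apart on this scale too. With length-scaled counts the log2 difference was -3.28 (edgeR adjusted p = 0.398), and it was -6.91 (adjusted p = 0.0920) when transcripts under 300 bases were left out.

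Gm21411 (ENSMUSG00000045699, chr4:146892406-146909590, minus strand) is a protein-coding gene of 750 transcribed bases with KRAB letters and no fingers. It was at 1.499, 1.80 and 0.731 CPM in WT against 0.029, 0.022 and 0.040 CPM in G643W. All 3 G643W libraries lay far below the lowest WT library, at about 2 or 3 estimated reads each, so the size of the difference rests on few reads. The log2 difference was -5.39 ± 0.63 (SE, edgeR adjusted p = 0.0481). Since the gene met the read floor through the WT libraries alone, its difference was fixed in part by the floor. Leaving out each library in turn moved the adjusted p to between 0.0640 and 0.289. Gm21411 has 10 near-identical copies. Summed with them, it was at 146, 132 and 105 CPM in WT against 63.9, 57.1 and 45.2 CPM in G643W, a sum of which Zfp990 and Zfp992 hold most in WT (log2 difference -1.20, edgeR adjusted p = 0.242).

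Zfp993 also carries KRAB letters without an array of 3 fingers. It stood at 12.1, 13.01 and 12.6 CPM in WT against 6.46, 7.43 and 4.19 CPM in G643W. The WT libraries were close together and all G643W libraries lay below them (log2 difference -1.06, edgeR adjusted p = 0.475). Its short form Zfp993-201, of 387 bases, held 493, 407 and 294 reads in WT and 92.9, 235 and 126 in G643W, without overlap, whereas Zfp993-202, of 1275 bases, overlapped, with 425, 513 and 653 against 350, 426 and 185 reads. Summed with its 5 near-identical copies, Zfp993 had a log2 difference of 0.15.

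Besides Zfp990, 6 zinc finger members had all WT libraries above all G643W libraries, and 0 of them passed the adjusted threshold in edgeR, with all 6 at an unadjusted p under 0.05. DESeq2 called Zfp985, Zfp981 and Gm13230 (adjusted p = 0.00424, 0.000232 and 0.00181). Zfp985 had the most reads of them, at 4.08, 3.02 and 2.82 CPM in WT against 0.365, 0.955 and 0.984 CPM in G643W. It has no near-identical copy, so its reads are not shared in that way. Its log2 difference was -2.10 ± 0.53 (SE, edgeR adjusted p = 0.409), and most of it lay in the full-length Zfp985-201, with 285, 194 and 191 reads in WT against 6.60, 63.1 and 58.1 in G643W, while the short Zfp985-203 held 23.1, 19.6 and 20.9 against 18.1, 21.6 and 14.6 reads.

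Zfp981, the gene best matching Zfp990 in this ranking, was at 0.644, 0.595 and 0.797 CPM in WT against 0.102, 0.011 and 0.054 CPM in G643W. It also has no near-identical copy, and every G643W library was under the lowest WT library (log2 difference -3.60, edgeR adjusted p = 0.298), but it met the read floor through WT alone. Zfp982 stood at 0.670, 0.354 and 0.345 CPM against 0.088, 0.236 and 0.148 CPM. Its groups did not overlap, although WT library 3 and G643W library 2 were near each other (log2 difference -1.52, edgeR adjusted p = 0.498). Zfp980 stood at 0.526, 0.495 and 0.252 CPM against 0.044, 0.157 and 0.081 CPM. With its 1 near-identical copy, Zfp989, added, its log2 difference moved from -2.14 to -0.59 (edgeR adjusted p = 0.462 and 0.630).

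Gm13230, annotated as a pseudogene but with 6 fingers in a reading frame, was at 0.841, 1.09 and 0.850 CPM in WT against 0.102, 0.022 and 0.189 CPM in G643W. All G643W libraries were well below WT (log2 difference -3.15, edgeR adjusted p = 0.383). Its transcript overlaps in sequence with the non-coding Platr16, which stood at 0.223, 0.326 and 0.279 CPM in WT against 0.015, 0.674 and 0.391 CPM in G643W. The Platr16 libraries overlapped, and the sum of both had a log2 difference of -1.37 (edgeR adjusted p = 0.536).

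**Figure D2:**
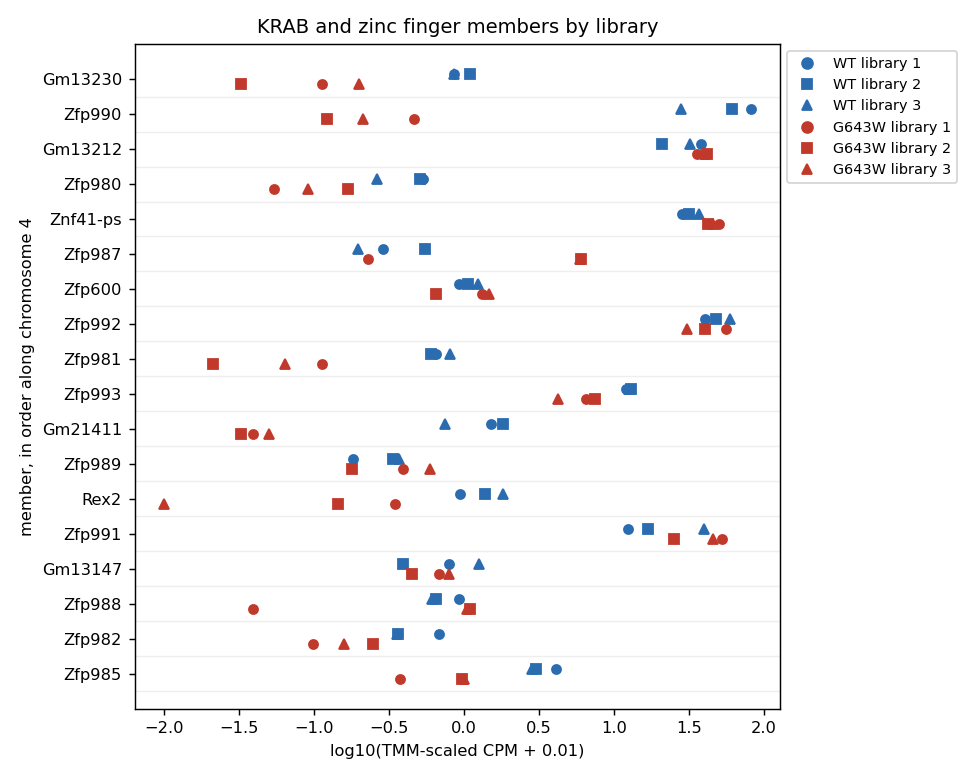
Level of each of the 18 members with KRAB letters or a zinc finger array in each library: the x axis gives log10 of the TMM-scaled CPM + 0.01, and rows follow the order along chromosome 4. Blue marks are WT and red marks G643W libraries, with the shape giving the library number, and the mark at the left edge is Rex2 in G643W library 3, at 0 reads. Zfp990 has the widest gap between blue and red marks, from 27.8 to 0.453 CPM.

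The most-read transcript of the KRAB zinc finger gene Zfp600 matched Rex2 over 573 bases, and the promoters of both genes are nearly the same. The lines give RefSeq windows (GRCm38.p6, plus strand) from 250 bases before to 50 after the start of each gene, for Rex2 at chr4:147021600-147021899, Zfp600 at chr4:146156577-146156876 and Zfp985, whose reads differed in the same direction as those of Rex2, at chr4:147553027-147553326. Capitals mark bases that differ from the aligned Rex2 window or have no partner in it.
Rex2: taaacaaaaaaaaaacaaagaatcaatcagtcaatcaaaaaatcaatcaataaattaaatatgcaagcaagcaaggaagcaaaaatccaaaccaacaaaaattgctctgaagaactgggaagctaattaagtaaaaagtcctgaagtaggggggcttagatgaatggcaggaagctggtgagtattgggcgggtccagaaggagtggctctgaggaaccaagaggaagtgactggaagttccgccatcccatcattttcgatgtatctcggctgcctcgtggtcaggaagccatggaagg
Zfp600: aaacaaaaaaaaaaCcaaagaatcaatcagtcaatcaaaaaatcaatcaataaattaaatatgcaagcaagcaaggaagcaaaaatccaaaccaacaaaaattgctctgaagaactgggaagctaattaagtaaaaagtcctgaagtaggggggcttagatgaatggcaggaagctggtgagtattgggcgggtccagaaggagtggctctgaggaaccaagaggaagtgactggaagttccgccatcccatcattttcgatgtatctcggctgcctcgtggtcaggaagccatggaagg
Zfp985: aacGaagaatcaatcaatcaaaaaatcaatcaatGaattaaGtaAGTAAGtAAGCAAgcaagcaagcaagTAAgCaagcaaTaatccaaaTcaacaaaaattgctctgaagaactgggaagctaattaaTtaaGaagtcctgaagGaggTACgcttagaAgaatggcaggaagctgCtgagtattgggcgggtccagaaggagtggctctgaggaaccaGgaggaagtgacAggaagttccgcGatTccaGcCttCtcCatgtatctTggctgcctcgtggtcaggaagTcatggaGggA
Rex2 and Zfp600 were identical at all 299 aligned bases, and the capital in Zfp600 is 1 extra base. Of the 16 zinc finger members, 8 had a window in the table, and their 28 pairs were 83.9% to 100% identical. Each held 3 to 7 CG dinucleotides, beside a median of 7 over 32851 promoter windows. The letters CCAAT, searched on both strands, were in 8 of 8 windows and in 37.4% of all, GGGCGG in 7 of 8 and in 35.7% of all, and TATAAA in 0 of 8 and in 13.6% of all. These are letter matches only.

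Rex2 stood at 0.933, 1.37 and 1.79 CPM in WT against 0.336, 0.135 and 0 CPM in G643W, where 0 reads allow up to 0.0404 CPM (3 counts, counting error only). All G643W libraries were below WT (log2 difference -3.12, edgeR adjusted p = 0.493). Zfp600 stood at 0.920, 1.05 and 1.24 CPM in WT against 1.30, 0.640 and 1.46 CPM in G643W, with the groups overlapping (log2 difference 0.08). Most Zfp600 reads lay on a retained-intron transcript of 724 bases, of which 79.1% matched Rex2 at 99.48%, and the full-length Zfp600-204 held 16.4, 10.2 and 0 reads in WT and 0, 2.00 and 0 in G643W. The sum of Rex2 and Zfp600 was 1.85, 2.42 and 3.03 CPM against 1.64, 0.775 and 1.46 CPM, which did not overlap either and had a log2 difference of -0.92 (edgeR adjusted p = 0.541).

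The most-read zinc finger members other than Zfp990 were Gm13212, Znf41-ps, Zfp991 and Zfp992. Znf41-ps, annotated as a pseudogene but with 11 fingers in frame, was at 28.3, 31.8 and 36.9 CPM in WT against 50.3, 42.6 and 45.6 CPM in G643W. It was the only member whose G643W libraries all lay above WT (log2 difference 0.52 ± 0.20, SE, edgeR adjusted p = 0.498). Gm13212, with up to 20 fingers and no near-identical copy, stood at 37.7, 20.7 and 32.0 CPM in WT against 35.8, 41.4 and 40.1 CPM in G643W. Its groups overlapped through WT library 1 (log2 difference 0.38, edgeR adjusted p = 0.603).

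Zfp991 stood at 12.4, 16.8 and 39.5 CPM in WT against 52.7, 24.9 and 45.6 CPM in G643W, and WT library 3 lay within the G643W range. Its near-identical partner Zfp992 stood at 40.6, 48.1 and 58.9 CPM in WT against 55.6, 40.2 and 30.4 CPM in G643W, also overlapping. The fitted log2 differences were 0.84 and -0.23 (edgeR adjusted p = 0.566 and 0.757). Zfp991, Zfp992 and Znf41-ps together held 81.3, 96.6 and 135 CPM in WT against 159, 108 and 122 CPM in G643W, so their sum overlapped as well. On the per-length scale, Zfp991 was at 29.3, 28.7 and 32.9 TPM in WT and lower in all G643W libraries, at 21.8, 16.3 and 21.1 TPM. The short Zfp991-202, of 234 bases, carried 26.5, 25.5 and 24.3 of these TPM in WT and 8.997, 11.1 and 10.5 in G643W, from 65.5 to 73.1 and 20.1 to 38.0 reads. The full-length Zfp991-201 held 873, 1111 and 2906 reads against 3586, 2175 and 3360.

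Zfp987 was the member with the highest fitted difference. It stood at 0.276, 0.538 and 0.186 CPM in WT against 0.219, 5.99 and 5.90 CPM in G643W. G643W libraries 2 and 3 were far above the rest, and G643W library 1 lay within the WT range (log2 difference 3.59 ± 1.15, SE, edgeR adjusted p = 0.487). In TPM the order turned, with 3.51, 5.72 and 3.18 in WT and 0.057, 1.31 and 1.45 in G643W. The full-length Zfp987-201, of 2798 bases, held 3.02, 11.6 and 0 reads in WT and 15.3, 533 and 438 in G643W, and Zfp987-203, of 266 bases, held 15.1, 26 and 14 reads in WT and 0 in each G643W library. The full-length transcript was 99.42% identical over 98.0% of its length to Gm8935 on chromosome 3, which stood at 0.026, 0.028 and 0 CPM in WT against 0.029, 1.58 and 2.08 CPM in G643W and had too few reads to be tested.

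Zfp988, 95.61% identical to Zfp987, had the same library order on the mutant side. It stood at 0.920, 0.637 and 0.598 CPM in WT against 0.029, 1.08 and 1.04 CPM in G643W, so that G643W library 1 was below every WT library and the other two were above. Its log2 difference was -0.003, and that of Zfp988 summed with its 3 near-identical copies was 1.32 (edgeR adjusted p = 0.633). Zfp989 lay at 0.171 to 0.359 CPM in WT and 0.169 to 0.579 CPM in G643W, and Gm13147 at 0.382 to 1.25 CPM and 0.438 to 0.781 CPM, both overlapping.

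**Figure D3:**
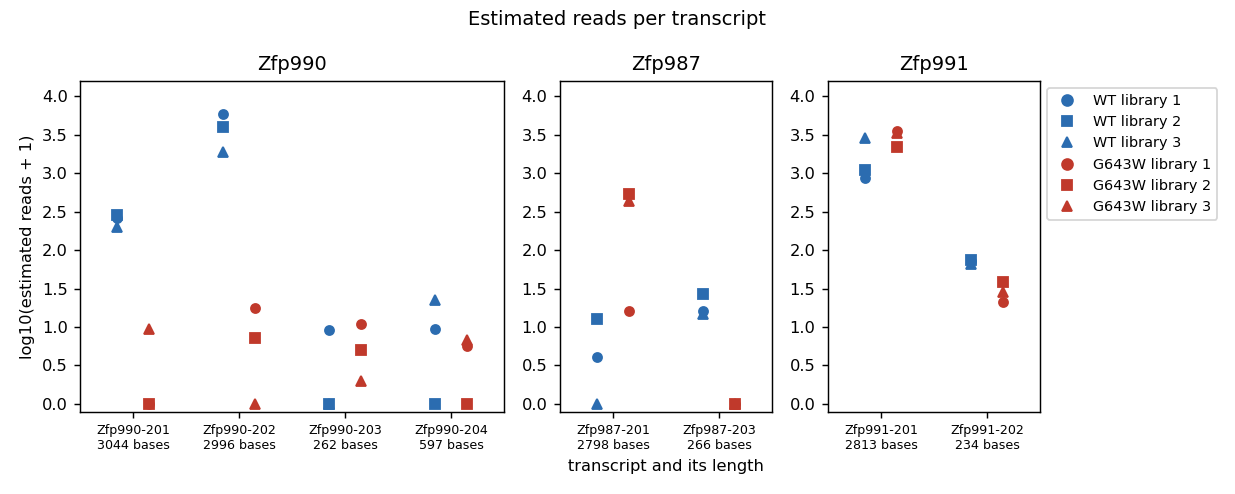
Estimated reads per transcript for Zfp990, Zfp987 and Zfp991: the y axis gives log10 of the reads + 1, and the x axis names each transcript with its length in bases. Blue marks are WT and red marks G643W libraries, shaped by library number. The long transcripts Zfp990-201 and Zfp990-202 have at most 16.6 reads in any G643W library, while Zfp987-201 reaches 533 and 438 reads in G643W libraries 2 and 3.

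Among the 10 non-coding RNA members, 4 had no overlap between the genotypes, all lower in G643W, beside 8.89% of all genes tested. None passed the adjusted threshold in edgeR, with 2 at an unadjusted p under 0.05, beside 9.66% of all genes. DESeq2 called 1 of them, C230088H06Rik (adjusted p = 0.00218). C230088H06Rik, which lies at chr4:147018235-147492201 on the minus strand and spans other members such as Rex2 and Zfp991, stood at 1.95, 1.26 and 1.51 CPM in WT against 0.497, 0.539 and 0.431 CPM in G643W. All G643W libraries were well below WT (log2 difference -1.68 ± 0.42, SE, edgeR adjusted p = 0.409). Its near-identical partner Gm26573 stood at 1.10, 0.311 and 0.345 CPM against 1.08, 0.494 and 0.445 CPM, and their sum had a log2 difference of -0.89 (edgeR adjusted p = 0.548). No source used here says whether counting was stranded. Where exons of such genes overlap on opposite strands, their reads might not be told apart, and exon overlap was not checked.

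Gm26763 stood at 0.933, 0.694 and 0.452 CPM in WT against 0.263, 0.157 and 0.310 CPM in G643W. Gm13166, a non-coding RNA near-identical to part of Zfp991 and Zfp993, stood at 7.45, 6.92 and 7.61 CPM in WT against 3.57, 5.67 and 3.61 CPM in G643W. Both lay wholly lower in G643W (log2 differences -1.51 and -0.77, edgeR adjusted p = 0.493 and 0.524), and Gm13166 summed with its 3 copies had a difference of 0.26. Gm13236, a copy of Gm13166, overlapped, at 0.342, 0.495 and 0.093 CPM in WT against 0.322, 0.405 and 0.094 CPM in G643W. 1700095A21Rik was the fourth that did not overlap, at or under 0.342 CPM in every library. The most-read non-coding member, Gm26880, named here after its values were seen, ranged from 6.04 to 266 CPM in WT and from 57.0 to 209 CPM in G643W, a spread within each genotype far wider than the difference between their means.

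No pseudogene member without a finger array lay wholly apart between the genotypes. The most-read, Gm13237, also named after its values were seen, is a near-identical copy of Hmgb2, an abundant DNA-binding chromatin protein of dividing cells. It stood at 20.6, 21.1 and 49.1 CPM in WT against 27.6, 88.8 and 56.1 CPM in G643W. Hmgb2 itself was at 395, 662 and 723 CPM in WT against 669, 1375 and 929 CPM in G643W, so copy and parent gene had their highest level in the same library. The other 10 pseudogenes without a finger array were at or below 3.04 CPM in every library.

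Of the 3 other protein-coding members, 2 encode receptors of the tumor necrosis factor family at the edge of the cluster. Tnfrsf1b encodes the type 2 receptor for tumor necrosis factor and stood at 234, 177 and 171.2 CPM in WT against 149.9, 103 and 170.8 CPM in G643W. The groups did not overlap, but WT library 3 and G643W library 3 were almost equal (log2 difference -0.46 ± 0.26, SE, edgeR adjusted p = 0.565), and in TPM they overlapped. Tnfrsf8 encodes CD30, a receptor of activated lymphocytes, and stood at 1.20, 1.32 and 3.96 CPM in WT against 2.95, 3.72 and 5.65 CPM in G643W, overlapping (log2 difference 0.93, edgeR adjusted p = 0.585). Gm16503 stood at 2.35, 0.849 and 1.10 CPM in WT against 1.05, 0.461 and 0.525 CPM in G643W, also overlapping (log2 difference -1.08, edgeR adjusted p = 0.556).

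Near-identical copies changed the reading of several members. Zfp990 summed with Gm21411 had a log2 difference of -7.67 (edgeR adjusted p = 0.0231), and it was the only member called in that form. Gm21411 averaged 1.34 CPM in WT beside 56.6 CPM for Zfp990 and was itself lower in G643W. This sum therefore had little room to move and is no check of the call. Of the 12 members without a copy, 6 lay wholly lower in G643W. Of the 29 tested members with one, 8 lay wholly lower and 1 higher. The shares over all genes tested were 8.89% lower and 7.05% higher. Zfp981 among the 6 and Gm21411 among the 8 met the read floor through WT alone. The median log2 differences were -0.77 without a copy and -0.23 with one. When every group of copies was joined to 1 row before the fit, the 16-gene group that holds Zfp990 and Gm21411 had a log2 difference of -0.37 (edgeR adjusted p = 0.547). That row holds Zfp991, Zfp992 and Znf41-ps, whose sum averaged 104 CPM in WT and 129 CPM in G643W.

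**Figure D4:**
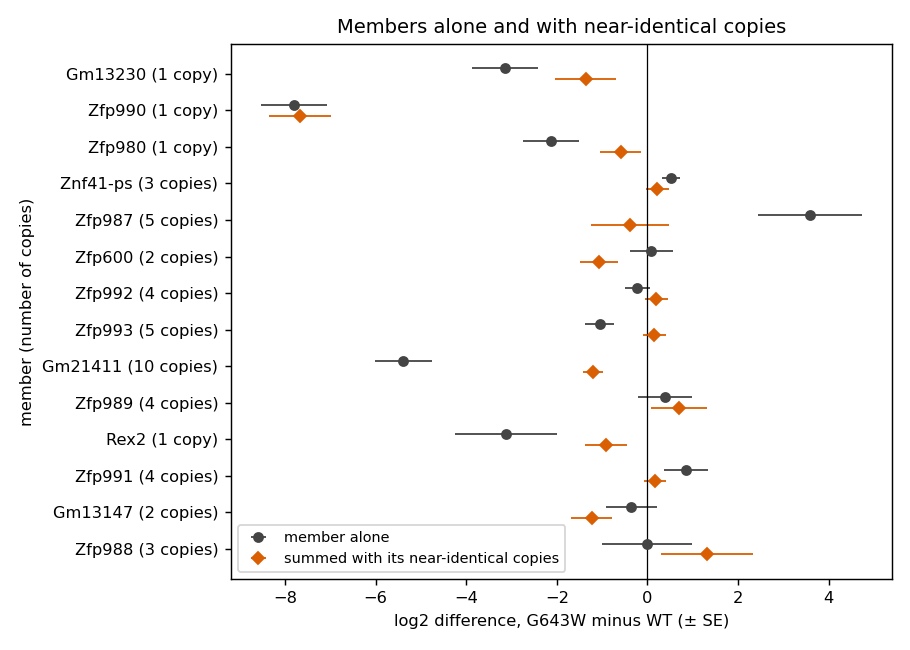
Members alone and summed with their near-identical copies: the x axis gives the log2 difference, G643W minus WT, with its standard error as a bar, and rows follow the order along chromosome 4 with the number of copies in brackets. Grey circles are the member alone and orange diamonds the sum. Zfp990 stays near -7.7, while Gm21411 moves from -5.39 to -1.20 and Zfp987 from 3.59 to -0.39.

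The summed level of the 16 zinc finger members overlapped between the genotypes in CPM and not in TPM. In CPM it was 211, 188 and 205 CPM in WT against 198, 159 and 173 CPM in G643W, with means of 201 ± 11.99 and 177 ± 20.01 CPM (SD, n = 3 each). The groups overlapped, since G643W library 1 lay above WT library 2, and the log2 ratio of the means was -0.19, given without a test. Without Zfp990 the sum was 129.7, 127 and 178 CPM in WT against 198, 159 and 173 CPM in G643W, a log2 ratio of 0.29, so that in CPM the sign turned without that gene. In TPM the 16 members summed to 85.5, 71.9 and 80.2 in WT and 69.4, 51.8 and 63.6 in G643W, with every G643W library lower. The log2 ratio of the means on that scale was -0.36, and -0.14 without Zfp990, of the same sign. Without Zfp990 the TPM sums overlapped, at 65.1, 60.1 and 73.9 in WT and 66.3, 51.0 and 63.2 in G643W. Their means were 66.4 and 60.2 TPM. The 234-base Zfp991-202 alone held 26.5, 25.5 and 24.3 TPM of these sums in WT and 8.997, 11.1 and 10.5 in G643W. It fell by more TPM than the means of the sums, so the sign without Zfp990 rests on this transcript of at most 73.1 reads.

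Beyond the window, Zfp534 starts at 147673502 on the minus strand, is a near-identical copy of members such as Zfp987 and Gm21411, and stood at 8.19, 6.12 and 2.76 CPM in WT against 0, 0.045 and 0 CPM in G643W (edgeR adjusted p = 0.113). Its groups did not overlap, and since G643W libraries 1 and 3 were at 0 no fold is given. Zfp979, the copy of Zfp600, stood at 1.99, 1.01 and 1.61 CPM against 0.936, 0.449 and 0.418 CPM, also without overlap. In the 1 Mb after the window, 4 of 26 tested genes (15.4%) lay wholly lower and 2 wholly higher, beside 8.89% and 7.05% of all genes tested. Their median log2 difference was 0.05, and in the 1 Mb before the window 0 of 4 lay apart. In edgeR 0 of these 30 flanking genes passed the threshold, and 4 had an unadjusted p under 0.05, beside 9.66% of all genes tested. DESeq2 called 2, beside 2.26% of the genes to which it gave an adjusted p.

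Zinc finger genes outside the window gave a comparison for the array. They include Zfp534, Zfp979, Zfp984 and Zfp933, which start within 1 Mb after the window. Of 465 other protein-coding genes with at least 3 fingers that were tested, 0 passed the threshold in edgeR. Of them, 32 had an unadjusted p under 0.05 in edgeR, beside 9.66% of all genes tested. DESeq2 called 6, beside 2.26% of the genes to which it gave an adjusted p. Wholly lower in G643W were 49, or 10.5% beside 8.89% of all genes tested, and 18 were wholly higher, beside 7.05%. Their median log2 difference was -0.20. Of the 178 with KRAB letters, 0 passed in edgeR and 2 in DESeq2, 19 (10.7%) lay wholly lower and 7 wholly higher, with a median of -0.22. In 7 other runs of 10 to 26 such genes, on chromosomes 2, 7, 13 and 17, 0 genes passed in edgeR and 1 in DESeq2, and the medians ran from -0.60 to -0.22, a range that holds the -0.29 of the 16 zinc finger members of distal chromosome 4. Of these 16, 43.8% lay wholly lower, against 0% to 26.7% in the other runs. In edgeR 9 of the 16 had an unadjusted p under 0.05, 7 lower and 2 higher in G643W, against 0 to 4 genes of each other run, all lower. The sets are unlike, since the runs hold protein-coding genes only. The 16 include the annotated pseudogenes Gm13230, Znf41-ps and Gm13147, and Zfp981, which met the floor through WT alone. The difference between these arrays was not tested.

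Partners and effectors of KRAB zinc finger repression were read from a co-repressor list of 30 genes. The list includes Zfp809 and Zfp57, themselves KRAB zinc finger genes, and Yy1, another zinc finger gene. Of the list, 29 genes were tested, all but Zfp57, and 0 passed the threshold in edgeR or in DESeq2. In edgeR 1 had an unadjusted p under 0.05, beside 9.66% of all genes tested. Daxx and Dnmt3a lay wholly lower in G643W, or 6.9% beside 8.89% of all genes tested. Hdac1 lay wholly higher, beside 7.05% of all genes. The median log2 difference of the list was -0.03. Trim28, the scaffold that KRAB domains bind, was at 214, 290 and 299.8 CPM in WT against 264, 124 and 153 CPM in G643W, overlapping (log2 difference -0.57 ± 0.33, SE, edgeR adjusted p = 0.566). Setdb1, its histone H3 lysine methyltransferase partner, stood at 48.2, 49.8 and 59.5 CPM against 61.0, 51.3 and 63.1 CPM, overlapping as well (log2 difference 0.16, edgeR adjusted p = 0.757). The lowest p-values of the list belonged to the histone deacetylase Hdac1, the methyltransferase Ehmt2 and the histone chaperone Daxx, with log2 differences of 0.53, -0.66 and -0.98 (edgeR adjusted p = 0.510, 0.516 and 0.523).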

How the data were processed

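RNA was sequenced from 6 libraries of sorted blasts, 3 per Asxl1 genotype, grouped by the labels' titles. The authors deposited per-transcript tables whose values are, per the file headers, estimated counts of reads, TPM and transcript lengths. The tools were bcl2fastq and Salmon 0.12.0 and the builds GRCm38.p6 and mm10, per the submitters' processing notes. The Salmon options, transcript index and strand setting were not given in the sources used here. Salmon divides reads that match several transcripts by a model, so values of near-identical genes are estimates.

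Of 136288 transcripts per table, 136176 matched GENCODE M21 and were summed over 53458 genes, and the other 112 held at most 0.0365% of reads. Estimated counts were summed per gene, rounded, filtered (filterByExpr, minimum count 10), TMM-scaled and tested by genotype alone with edgeR 4.0.16 in R 4.3.3 (glmQLFit and glmQLFTest, two-sided, Benjamini-Hochberg over 20654 genes, threshold 0.05). Standard errors are the absolute log2 difference divided by the square root of F. The biological coefficient of variation was 52.8%. The fit was tested on simulated data. No libraries agreed within sampling noise.

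Fingers (C-2-C-12-H-3 or 4-H) and KRAB letters were searched in the reading frames of the transcripts. Copies were sought with BLAST+ 2.17.0 on the same strand from each member's most-read transcript, and fingers aligned with MAFFT 7.526. Promoter windows came from RefSeq.

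The members, lists and tests were chosen with earlier results of these data known. Members were named by rule: those past the threshold, the 12 next by p, the 6 zinc finger members with the highest mean TPM, protein-coding members without a finger array, and copies of the first 2 kinds. Of other genes, Asxl1, Trim28, Setdb1 and the 3 lowest p-values of the co-repressor list were named. Alternatives were omission of each library in turn, a replicate block, other scaling and filters, length-scaled counts, copies summed at 95% or 90% identity, DESeq2 1.42.0 and limma 3.58.1 on log2(TPM + 1) and log2(TPM + 0.1). Sums of each member with its own copies, removal of transcripts under 300 bases, the TPM sum and removal of Zfp990 were added after the data were seen.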

Additional observations from a re-analysis of the deposited data

How the results depend on the processing

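At a biological coefficient of variation of 52.8% with 3 libraries per genotype, the smaller log2 difference of the 2 called members was 5.39, and members with near-identical copies depend on how reads are divided. The replicate numbers share only a number: correlations of same-numbered libraries were 0.112, -0.165 and 0.176. With the replicate number as a block (replicate block), 0 genes and 0 members passed in edgeR, with 1772 genes at an unadjusted p under 0.05, the Zfp990 adjusted p was 0.0732, and Platr16 moved to -0.23.

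Over all genes, the count of 25 called (11 higher, 14 lower) became 16 with no scaling, 104 with no filter, 10 with length-scaled counts, 16 with these without short transcripts, 428 with DESeq2, 43 with limma on log2(TPM + 0.1), and 0 to 16 with a library left out (0 without WT library 2, with 1277 at an unadjusted p under 0.05). The 2 members called became 1 with no scaling, 1 with at least 1 CPM in 3 libraries, 0 with length-scaled counts with or without short transcripts, 0 with copies summed at 95% or at 90% identity, 7 with DESeq2, 0 with limma on log2(TPM + 1), 1 with log2(TPM + 0.1), 1 with each member summed with its direct copies, and 0 to 1 with a library left out. The summed level of the zinc finger members, -0.19 on the log2 scale, was -0.36 in TPM and 0.29 in CPM without Zfp990, and lay between -0.28 and -0.12 with a library left out. Apart from the smaller number of libraries or rows in some of these fits, the cause was not tested.

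The sign of named members turned in these cases. With direct copies summed it turned for Platr16 (-1.37), Zfp987 (-0.39), Gm26573 (-0.89), Zfp600 (-1.07), Gm13166 (0.26), Zfp992 (0.20), Zfp993 (0.15) and Zfp988 (1.32). With whole groups summed at 95% it turned for Platr16 (-1.37), Gm26573 (-0.89), Zfp600 (-1.07) and, in 1 shared row at -0.37, for Znf41-ps, Zfp987, Zfp989 and Zfp991. At 90% it turned for Platr16 (-1.37), Gm26573 (-0.89) and, in 1 shared row at -0.10, for Gm13212, Znf41-ps, Zfp987, Zfp600, Zfp989 and Zfp991. On scales per length it turned for Zfp987 (-2.14 with length-scaled counts, -1.47 and -2.55 with limma on log2(TPM + 1) and log2(TPM + 0.1)), Zfp991 (-0.68, -0.60 and -0.62) and Platr16 (-0.11 with log2(TPM + 0.1)). With length-scaled counts without transcripts under 300 bases, Zfp987 and Zfp991 kept their sign, at 4.19 and 0.89. Zfp988, at -0.003, turned to 0.038 with DESeq2, 0.039 with its size factors, 0.008 and 0.007 with length-scaled counts with and without short transcripts, and 0.006 without a filter. With a library left out in turn, signs also turned for Zfp988 (-0.42 to 0.64), Gm26573 (-0.24 to 1.03), Platr16 (-0.43 to 1.04), Gm13236 (-0.58 to 0.38), Zfp600 (-0.14 to 0.37), Zfp989 (-0.066 to 0.75) and Gm13147 (-0.66 to 0.16). Zfp990 and Gm21411 kept their sign in every alternative, with Zfp990 between -8.41 and -0.10. For both genes the values of -0.37 and -0.10 are those of the shared rows. These rows also hold Zfp991, Zfp992 and Znf41-ps, so their sign does not describe either gene alone. Gm21411 met the read floor through WT alone, so its sign was fixed in part by the floor.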
